A study of Mus musculus with 6 samples.

Results

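The AP-1 and EGR immediate early factors are 10 genes: the FOS family (Fos, Fosb, Fosl1, Fosl2), the JUN family (Jun, Junb, Jund), Atf3, Egr1 and Egr2. They were taken as every non-control spot whose gene name on the array is one of these symbols. This gave 12 probes in 39 spots per array, of 41174 non-control probes in 43379 spots. By name, the array covered 19822 genes of the RefSeq table. The series compared 3 Magic-F1 +/+ samples with 3 control samples of satellite cells, the resident stem cells of skeletal muscle, all from female mice and in proliferation. The series describes both groups as biological triplicates. Source names, however, are the same for all 3 samples of a group, with the same replicate number. The replicate numbers used here come from the titles. Titles of all Magic-F1 samples also carry the term Omo, and those of all control samples the term MLC3F. The labels do not explain these terms, so what they stand for cannot be told apart from Magic-F1 status. The age of the mice, the strain and the promoter that drives Magic-F1 are not stated in the labels. Magic-F1 is known as an engineered protein derived from hepatocyte growth factor that acts on its receptor Met.

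AP-1 is a dimer of basic leucine zipper proteins. FOS proteins cannot pair with themselves and bind DNA with a JUN partner, whereas JUN proteins can pair with each other, and ATF3 can join JUN proteins or pair with itself. EGR1 and EGR2 are zinc finger factors that bind GC-rich sites. Many of these genes are transcribed within minutes of a growth factor, serum or stress signal, through serum response factor, its ternary complex partners and CREB-type factors at their promoters. In skeletal muscle, Fos, Jun and Egr1 messages also appear when tissue is dissociated, and Fosl1 and Jund differ from the others in being induced late or present at a steady level.

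The promoters of the 3 members that rose most, Atf3, Egr2 and Fos, are shown, with that of Jun, which encodes a partner of FOS proteins and also rose. Each window is the 250 bases before the annotated start in RefSeq on mouse GRCm38.p6, written 5′ to 3′ on the gene's strand. They lie at chr1:191183334-191183583 on the minus strand for Atf3, chr10:67537619-67537868 on the plus strand for Egr2 (1 of 5 windows listed), chr12:85473640-85473889 on the plus strand for Fos and chr4:95052223-95052472 on the minus strand for Jun. Capitals mark matches on either strand to the AP-1 site TGANTCA, the CRE-like site TGANNTCA, the CRE half-site TGACG, the CArG box bound by serum response factor, or the EGR site GCGNGGGCG. A full CRE matches both the CRE-like site and the half-site.
Atf3: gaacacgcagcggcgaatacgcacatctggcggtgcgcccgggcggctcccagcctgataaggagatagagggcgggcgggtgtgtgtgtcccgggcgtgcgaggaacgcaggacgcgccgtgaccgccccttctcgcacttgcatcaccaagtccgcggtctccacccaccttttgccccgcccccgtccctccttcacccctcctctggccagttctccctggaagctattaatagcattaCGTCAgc
Egr2: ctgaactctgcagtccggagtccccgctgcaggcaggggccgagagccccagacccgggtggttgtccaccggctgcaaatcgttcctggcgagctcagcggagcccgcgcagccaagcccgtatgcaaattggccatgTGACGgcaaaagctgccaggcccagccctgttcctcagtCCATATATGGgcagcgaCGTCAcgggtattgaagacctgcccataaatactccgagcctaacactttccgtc
Fos: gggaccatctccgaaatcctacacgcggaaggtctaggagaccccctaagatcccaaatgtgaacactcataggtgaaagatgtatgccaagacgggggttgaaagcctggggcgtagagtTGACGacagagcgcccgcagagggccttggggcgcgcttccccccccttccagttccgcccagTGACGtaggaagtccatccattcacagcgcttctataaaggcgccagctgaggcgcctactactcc
Jun: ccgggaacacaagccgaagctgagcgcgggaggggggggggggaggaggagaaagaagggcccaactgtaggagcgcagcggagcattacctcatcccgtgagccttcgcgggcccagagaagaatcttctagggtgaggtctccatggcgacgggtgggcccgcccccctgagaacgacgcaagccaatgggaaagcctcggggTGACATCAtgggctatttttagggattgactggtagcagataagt

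Windows were listed for 8 of the member genes. Egr1 was left out of the counts, and Fosl1 had no window to scan. The Fos window held the CRE half-site from base -129 to -125 and again from base -66 to -62 before the start. The Egr2 window held a CArG box, from base -72 to -63, between 2 half-sites. Jun held the CRE-like letters TGACATCA, and Atf3 held 1 half-site next to its start. In any of their windows, 5 of 8 genes held the half-site, against 17.8% of all 32851 windows of the same length. The CRE-like site was in 2 of 8 genes, against 11.9% of windows. The CArG box was in 1 of 8, against 1.47%, the EGR site in 2 of 8 (Fosb and Fosl2), against 4.70%, and the AP-1 site in 0 of 8, against 6.75%. Egr2 had several windows and so more chances than a single window.

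Values are log2 signals relative to the 75th percentile of each array. The RNA of 6 samples was labelled with Cy3 and hybridised to 6 single-colour arrays, on which 49.2% to 52.0% of spots were well above background. Correlations over probes were at least 0.996 within a group and at most 0.849 between groups. Of all tested probes 87.7% changed at a limma adjusted p below 0.05, with 41.3% higher and 46.4% lower in Magic-F1. The number of arrays limits the precision, and depth in reads does not apply.

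Markers of the labelled cell type were far lower in Magic-F1. All 11 tested satellite cell and myoblast markers were lower in Magic-F1, with a summed signal of 35.0 to 36.5 times the 75th percentile on Magic-F1 arrays against 466 to 504 on control arrays. Pax7, the transcription factor that defines satellite cells, had no array well above background among the 3 of Magic-F1, and Myf5 none among all 6. Macrophage markers summed to 2081 to 2166 on Magic-F1 arrays and 453 to 480 on control arrays, with 14 of 15 higher and 1 lower by its brightest probe (Lyz2, at -0.30, with its other probe at 2.97). Neutrophil markers summed to 0.58 to 0.62 on Magic-F1 arrays and 586 to 631 on control arrays, with 9 of 9 lower, and S100a9, Ltf, Camp and Ngp had no Magic-F1 array well above background. Adipocyte markers summed to 764 to 803 on Magic-F1 arrays and 149.8 to 153 on control arrays, with 9 of 10 higher and Slc2a4 lower. Such sums weigh the brightest genes most. On control arrays these were Lyz2 among macrophage markers, at a mean log2 signal of 8.48, and S100a9 among neutrophil markers, at 8.89. The median log2 change of the macrophage markers was 4.59. Of all tested genes, 40.5% were higher and 48.6% lower. The part of these marker shifts in the changes of the members was not tested. In bulk RNA, fewer cells of a type and less RNA per cell cannot be told apart.

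Of the 12 member probes, 11 were higher and 1 was lower in Magic-F1, where 41.3% and 46.4% of all tested probes were. By gene, 9 of 10 were higher and 1 was lower, against 40.5% and 48.6% of 13332 tested genes, of which 89.1% changed in all. The median change of the member genes was 1.35 on the log2 scale, against -0.17 for all tested genes. At least a 2-fold rise was seen in 6 of 10 member genes by their brightest probe, and in 24.8% of all tested probes. With a normexp background the medians were 0.87 for the members and -0.18 for all tested genes, and 4 of 10 members rose at least 2-fold, against 14.9% of all tested probes. The 2 groups of arrays did not overlap for 12 of 12 member probes, 11 of them higher in Magic-F1. This was also so for 89.1% of all tested probes, 41.9% being higher in Magic-F1.

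**Figure D1:**
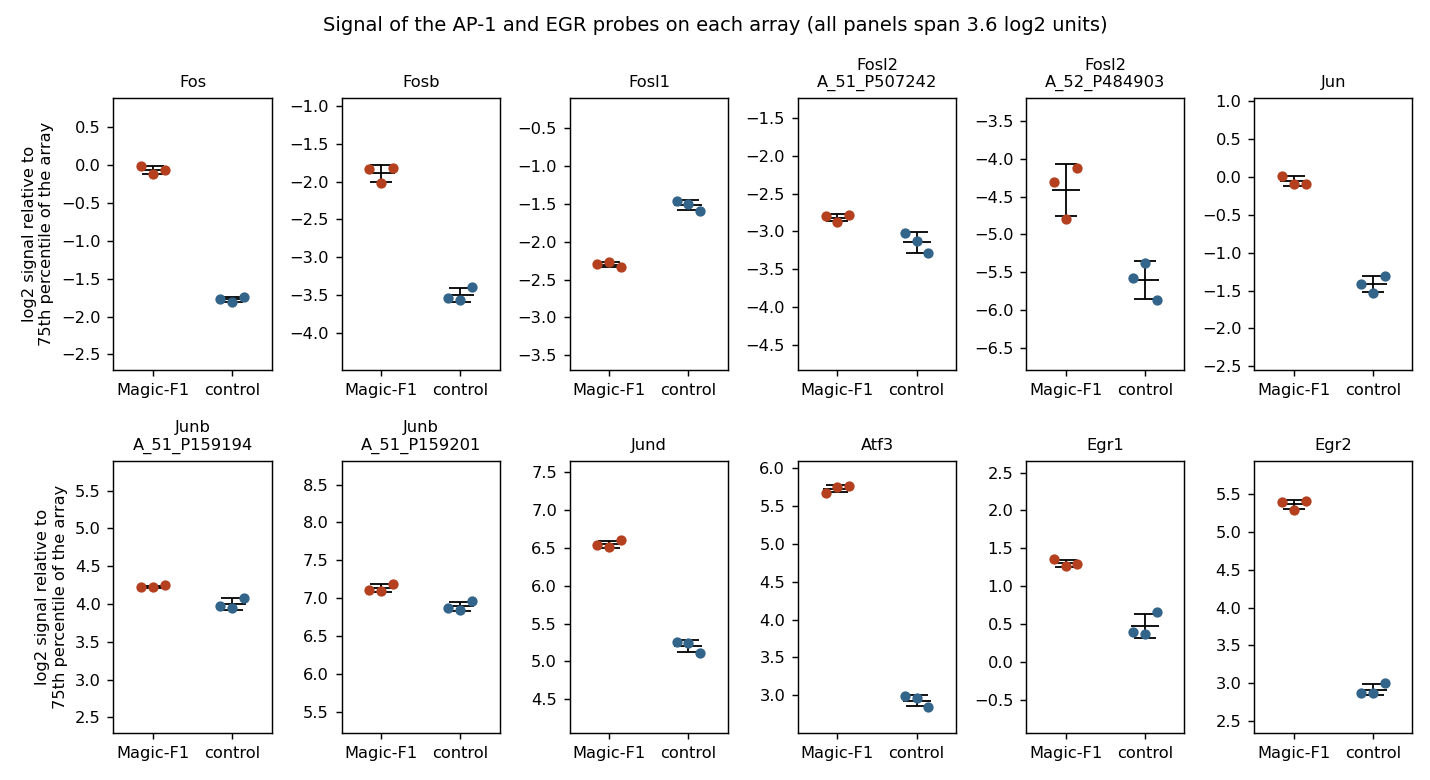
Log2 signal relative to the 75th percentile of the array for each of the 12 probes, with 1 point per array, Magic-F1 left and control right, and bars for the mean and SD of 3 arrays. The groups do not overlap in any panel, Fosl1 is the only panel with Magic-F1 below control, and Atf3 and Egr2 show the widest gaps.

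Among the FOS genes, the 2 that encode proteins with a strong activation domain rose more than 3-fold, but less with a normexp background. Fos, the founding member, is read by probe A_52_P262219 at mm9 chr12:86817900-86817959 on the plus strand. It had values of -0.02, -0.11 and -0.06 on the Magic-F1 arrays and -1.77, -1.80 and -1.74 on the control arrays. Every Magic-F1 array lay at least 1.63 above every control array, while the SD within a group was 0.05 in Magic-F1 and 0.03 in control. The change was 1.71 (SE 0.05, limma adjusted p 3.44e-07), a 3.27-fold rise. With a normexp background it was 1.21.

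Fosb encodes a close relative of FOS whose truncated splice form builds up on repeated stimulation, a form this probe was not used to separate. Its probe A_51_P138378 lies at mm9 chr7:19888477-19888536 on the minus strand. Values were -1.83, -2.02 and -1.82 on Magic-F1 arrays and -3.53, -3.57 and -3.40 on control arrays, with no overlap. The change was 1.61 (SE 0.08, limma adjusted p 3.64e-06), or 3.06-fold. With a normexp background, which shrinks the contrast of dim probes, it was 0.66 and stayed called.

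Fosl1 encodes FRA1, which lacks a strong activation domain, and was the only member that fell. Its probe A_51_P308796 is at mm9 chr19:5455496-5455555 on the plus strand. Magic-F1 arrays gave -2.30, -2.27 and -2.33, against -1.46, -1.50 and -1.59 on control arrays. All 3 Magic-F1 arrays lay below all 3 control arrays. The change was -0.79 (SE 0.05, limma adjusted p 1.49e-05), that is 1.72-fold lower, and it was -0.33 when arrays were scaled to the spiked-in transcripts, under which the median of all tested probes moved to 0.36.

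Fosl2 encodes FRA2, the second member without that domain, and its level rests on 2 dim probes 4477 bases apart on mm9 chromosome 5. Probe A_51_P507242 at chr5:32455088-32455147 had -2.80, -2.87 and -2.78 on Magic-F1 arrays and -3.02, -3.12 and -3.29 on control arrays. Its change was 0.33 (SE 0.08, limma adjusted p 0.00822), with a gap of 0.15 between the nearest arrays of the groups. The other, A_52_P484903 at chr5:32459624-32459683, had -4.30, -4.79 and -4.13 on Magic-F1 arrays and -5.57, -5.37 and -5.86 on control arrays. On 3 of 3 control arrays it was not well above background, so its rise is given as at least 1.49-fold (limma adjusted p 0.00164 for the fitted change of 1.19). Both calls were lost with a normexp background, where the changes were -0.01 (adjusted p 0.764) and -0.03 (adjusted p 0.622), so the Fosl2 rise depends on the background correction.

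Of the JUN genes, Jun and Jund rose more than 2-fold and Junb far less, though Jun fell just short of 2-fold with a normexp background. Jun encodes the main partner of FOS proteins, and its probe A_51_P325914 lies at mm9 chr4:94715864-94715923 on the minus strand. Its values were 0.02, -0.10 and -0.09 on Magic-F1 arrays and -1.41, -1.53 and -1.30 on control arrays. The gap between the nearest arrays of the groups was 1.21. The change was 1.36 (SE 0.07, limma adjusted p 5.49e-06), or 2.56-fold. With a normexp background it was 0.99.

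Jund, whose product is present in resting cells as well, was read by probe A_51_P357744 at mm9 chr8:73224436-73224495 on the plus strand. It gave 6.55, 6.51 and 6.60 on Magic-F1 arrays and 5.26, 5.24 and 5.11 on control arrays. No control array came within 1.25 of a Magic-F1 array. The change was 1.35 (SE 0.06, limma adjusted p 2.12e-06), a 2.55-fold rise.

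Junb encodes a weaker activator that can hold back JUN, and both of its probes rose by a small step. Probe A_51_P159194 at mm9 chr8:87500843-87500902 had 4.23, 4.22 and 4.25 on Magic-F1 arrays and 3.97, 3.95 and 4.08 on control arrays. Probe A_51_P159201 at chr8:87500881-87500940 had 7.11, 7.09 and 7.19 on Magic-F1 arrays and 6.87, 6.85 and 6.96 on control arrays. The changes were 0.23 (SE 0.05, limma adjusted p 0.0062) and 0.24 (SE 0.05, limma adjusted p 0.00543), or 1.17-fold and 1.18-fold. Their size depends on the scaling. Scaled to the spiked-in transcripts, which put the median of all tested probes at 0.36, the changes were 0.69 and 0.70. With quantile normalization they were 0.29 and 0.71. The 2 probes are not independent readings, since they share 22 letters at mm9 chr8:87500881-87500902 on the minus strand.
Junb: ttcgtgtctaaagtctatttta
Within slide 1 alone the first of them was 0.21 with an adjusted p of 0.0666, so that call is lost there.

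Atf3 had the largest change of the members. It encodes a stress-induced factor that represses many promoters as a homodimer, and its probe A_52_P452689 is at mm9 chr1:192994547-192994606 on the minus strand. Values were 5.67, 5.76 and 5.76 on Magic-F1 arrays and 2.98, 2.96 and 2.84 on control arrays. The groups were 2.69 apart at their nearest arrays. The change was 2.80 (SE 0.06, limma adjusted p 1.15e-07), or 6.97-fold, and 94.0% of all tested probes had a change below it.

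Both EGR genes rose, Egr2 more than Egr1. Egr2, needed for Schwann cell myelination and also active in macrophages, is read by probe A_51_P173043 at mm9 chr10:67004758-67004817 on the plus strand. It had 5.39, 5.29 and 5.41 on Magic-F1 arrays and 2.88, 2.87 and 3.00 on control arrays. The change was 2.45 (SE 0.06, limma adjusted p 1.97e-07), a 5.46-fold rise.

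Egr1, the most widely studied early growth response gene, is read by probe A_51_P367866 on mm9 chromosome 18. It had 1.35, 1.26 and 1.29 on Magic-F1 arrays and 0.40, 0.36 and 0.65 on control arrays. Control replicate 3 was the highest of its group, and the groups still lay 0.61 apart. The change was 0.83 (SE 0.09, limma adjusted p 0.000153), or 1.78-fold.

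**Figure D2:**
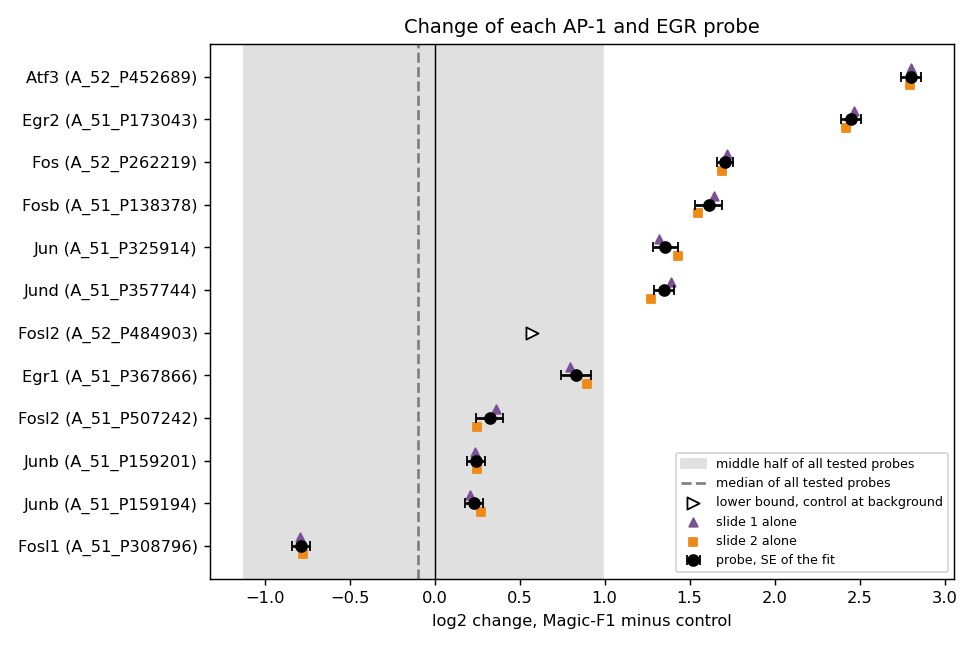
Log2 change of each probe, Magic-F1 minus control, with the SE of the fit, and the change on slide 1 and on slide 2 alone. The open triangle is the lower bound of the Fosl2 probe at background in control, 0.57. The grey band spans the quartiles of all tested probes, from -1.12 to 0.99, and 6 of the 11 probes measured in both groups lie to its right, Atf3 farthest at 2.80.

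Fos, Jun and Egr2 have 10 spots per array and the others 1. The SD between spots of 1 array, which covers technical noise within an array only, was 0.05 to 0.08 for Fos, 0.06 to 0.07 for Egr2 and 0.08 to 0.13 for Jun. Within groups, Magic-F1 replicate 2 was the lowest of its group for 10 of 12 probes. Control replicate 3 was the highest of its group for 7 probes and the lowest for 5. The largest SD within a group was that of the second Fosl2 probe, 0.34 in Magic-F1 and 0.25 in control.

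Replicates 1 and 3 of both groups shared 1 slide and replicate 2 of both groups another, so each slide held both groups. The changes on slide 1 and slide 2 were 1.72 and 1.69 for Fos, 1.64 and 1.55 for Fosb, and -0.79 and -0.77 for Fosl1. For Jun they were 1.32 and 1.43, for Jund 1.39 and 1.27, for Atf3 2.80 and 2.80, for Egr1 0.79 and 0.90, and for Egr2 2.46 and 2.42. The second Fosl2 probe, at background on the control arrays, gives no value to compare between slides. Slide 2 holds 1 array per group and allows no test of its own. With the slide as a block, 12 of 12 probes kept their call, with limma adjusted p of at most 0.016.

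Changes were also compared between members. Taking the difference of 2 members within each array removes the scaling between arrays, and 7 such pairs were compared with an exact 2-sided permutation test, for which 3 arrays against 3 allow no p below 0.1. Fosl1 differed in change from Fos by -2.49 (exact p 0.1, adjusted 0.14), and Fosl2 from Fos by -1.38 (exact p 0.1, adjusted 0.14). Junb changed less than Jun (difference -1.11, exact p 0.1, adjusted 0.14). Egr2 changed more than Egr1 (difference 1.62), and Atf3 more than Fos (difference 1.09), each with exact p 0.1 and adjusted p 0.14. Fosb against Fos differed by -0.10 (exact p 0.3, adjusted 0.35) and Jund against Jun by -0.01 (exact p 1.0), which does not show that they changed alike. These last 2 differences still depend on the background correction. With normexp, Fosb changed by 0.66 and Fos by 1.21, and Jund by 1.38 and Jun by 0.99. No pair could pass a threshold of 0.05 in this design.

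**Figure D3:**
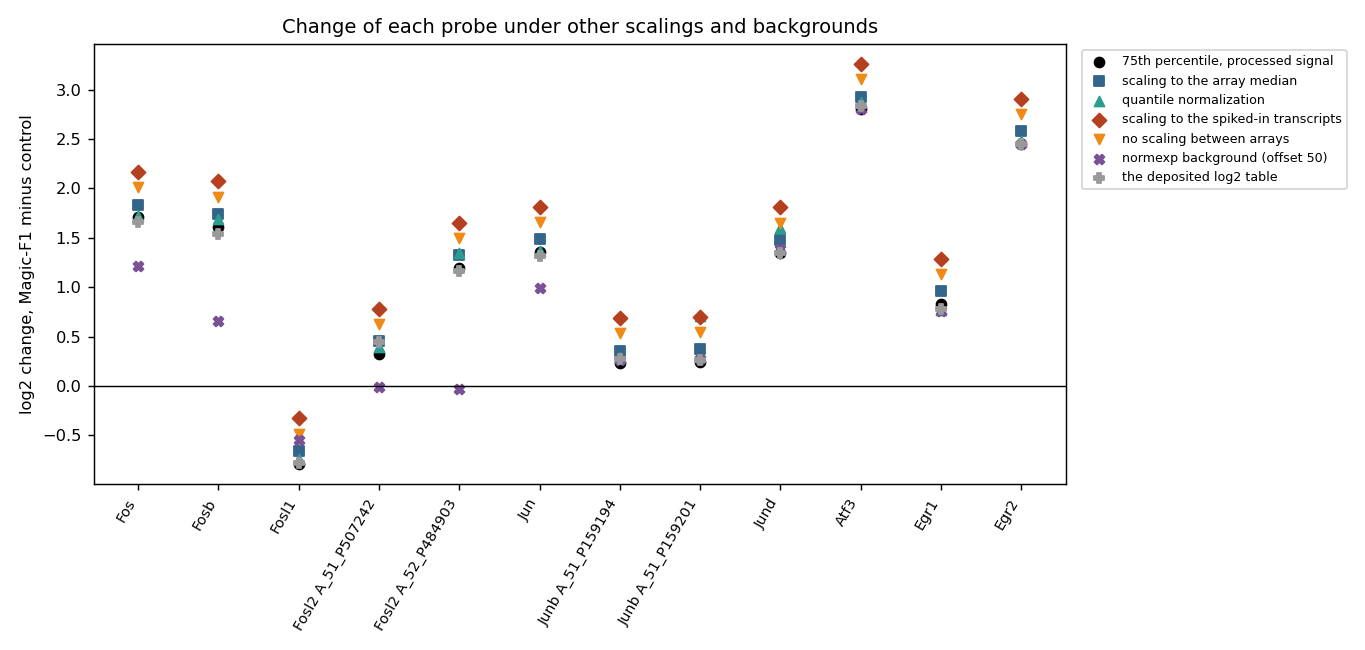
Log2 change of each probe, Magic-F1 minus control, under 7 combinations of scaling and background, 1 symbol each. Scaling to the spiked-in transcripts raises every probe, Fosl1 stays below 0 throughout, and the 2 Fosl2 probes drop to -0.01 and -0.03 with the normexp background.

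The other immediate early genes did not move one way. Of 26 tested, 13 rose, 9 fell and 4 did not pass the test, with a median change of 0.19 against -0.17 for all tested genes. The shares over all tested genes were 40.5% higher and 48.6% lower. Scaled to the spiked-in transcripts, 17 of the 26 rose and 6 fell. Arc, which encodes a cytoskeleton-associated protein best known from activated neurons, rose by 3.05 (SE 0.06, limma adjusted p 1.1e-07). Zfp36, which binds AU-rich messages and speeds their decay, rose by 2.43, and Plk3, a stress-responsive kinase, by 2.12. Dusp2, a phosphatase of ERK-type kinases, fell by 2.78 (SE 0.05, limma adjusted p 7.92e-08). Egr3 was not tested, since it was well above background on at most 2 Magic-F1 arrays and on 0 control arrays. Egr4, Nr4a3 and Rhob have a probe each, with 0 of 6 arrays well above background.

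Among AP-1 dimer partners and other basic leucine zipper genes, 16 of 25 rose, 5 fell and 4 did not pass the test, with a median of 0.67. The shares over all tested genes were 40.5% higher and 48.6% lower. Of the listed genes past the test, 4 (Crem, Atf2, Creb1 and Atf6) had another tested probe of the opposite sign. Cebpa, a factor of myeloid and fat cell differentiation, rose by 3.75 (SE 0.09), and Maf, a large MAF factor of macrophages and lens, by 3.61 (SE 0.10), with its other probes at 2.78 to 4.23. Batf2, which pairs with JUN proteins in myeloid cells, rose by 3.35 (2.72 with a normexp background).

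Of 17 tested genes that act upstream of these promoters, 10 rose, 5 fell and 2 did not pass the test, with a median of 0.39. Over all tested genes, 40.5% were higher and 48.6% lower. Rps6ka1, a kinase activated by ERK that phosphorylates CREB and serum response factor, rose by 3.80 (SE 0.06), but its second probe by 1.30. Mapk3, which encodes ERK1, rose by 2.01, Mrtfa, an actin-regulated coactivator of serum response factor, by 1.69, and Mapk14, which encodes the p38 alpha kinase, by 1.30. Elk1 was not well above background on any array. Nab1, a corepressor that binds EGR1 and EGR2, had a change of -0.22 with a limma adjusted p of 0.0653, and Nab2 was not well above background on any array.

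Genes known as AP-1 targets were mixed. Of 16 tested, 6 rose, 9 fell and 1 did not pass the test, with a median of -0.42. Over all tested genes, 40.5% were higher and 48.6% lower. Il6, an inflammatory cytokine, fell by 6.11 (SE 0.07, limma adjusted p 2.67e-08) and by 5.16 with a normexp background, and Ccl2, a monocyte attractant, fell by 2.93. Ccnd1, which encodes cyclin D1, rose by 2.91 (SE 0.06), and Mmp13, a collagenase, by 2.36 (SE 0.07). Heat shock genes, several of which respond to stress as some members do, fell in 8 of 10, against 48.6% of all tested genes. Their median change was -0.84. Any part of cell handling in these changes was not tested. Hspb1 fell by 3.30 and Hspe1 fell by 2.52, while Hspa1a rose by 1.92 and Hspa1b by 1.72. Hspa1a and Hspa1b are near-identical copies, so their probes may read both.

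**Figure D4:**
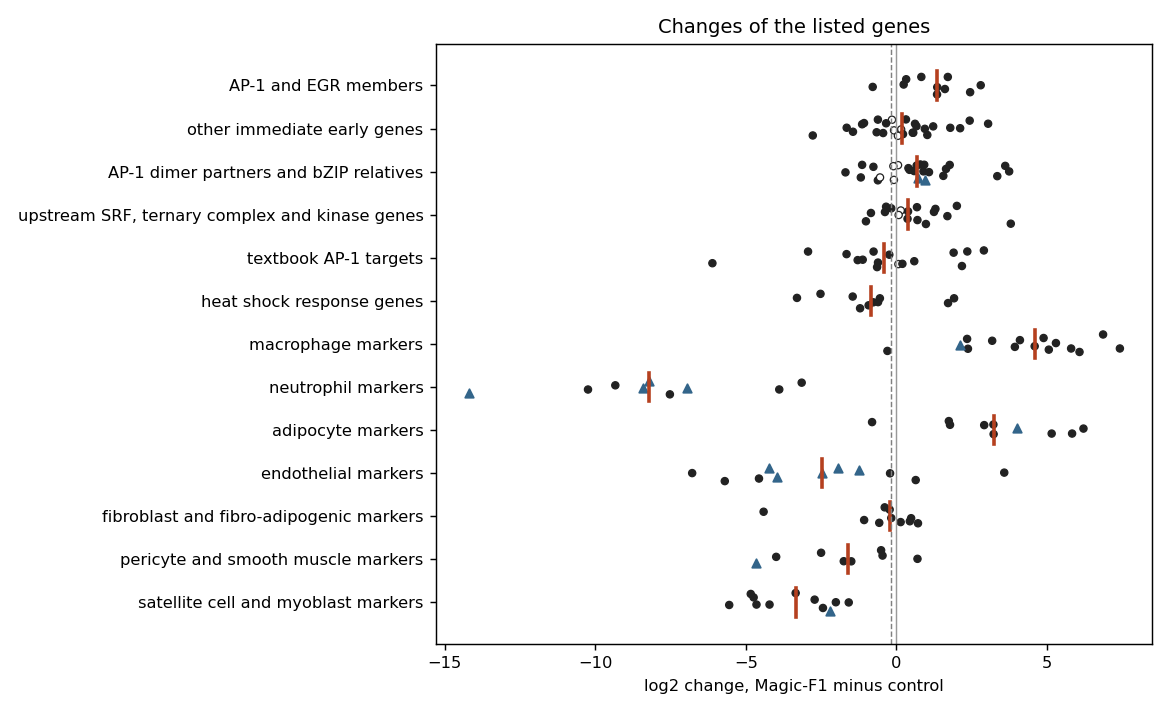
Log2 change, Magic-F1 minus control, of each tested gene by list, with filled points for genes past the limma threshold, open points for the others and triangles at the bound for genes at background in a whole group. Red bars are list medians with those genes at their bound, and the dashed line is the median of all tested genes at -0.17, with the members at 1.35, macrophage markers at 4.59 and neutrophil markers at -8.20 (-5.58 with a normexp background).

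The remaining marker lists moved as follows, where 40.5% of all tested genes were higher and 48.6% lower. Endothelial markers were lower in 9 of 11, with summed signals of 19.3 to 21.0 on Magic-F1 arrays and 14.0 to 14.1 on control arrays, and Vwf, which encodes von Willebrand factor, rose by 3.58. Fibroblast and fibro-adipogenic markers were higher in 4 and lower in 6 of 10, with a median of -0.20 and sums of 743 to 757 on Magic-F1 arrays and 1070.0 to 1098 on control arrays. Pericyte and smooth muscle markers were lower in 7 of 8, with a median of -1.62 and sums of 289.7 to 302 on Magic-F1 arrays and 1182 to 1228 on control arrays. The members together summed to 326 to 345 on Magic-F1 arrays and 170 to 177 on control arrays.

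Genes with the most similar course were sought for the member with the largest rise and for the one that fell, by the root mean square difference of centred log2 signals over the 6 arrays. For Atf3 they included Tnfrsf21 (0.0222) and Lyn (0.0266), and 88 of 12729 genes lay within 0.1. For Fosl1 they were Ddx50 (0.0113), Rb1cc1 (0.0168) and Ggt5 (0.0251), with 550 genes within 0.1. With 2 groups of arrays, this likeness rests mostly on a similar difference between groups.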

How the data were processed

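Total RNA of 3 Magic-F1 and 3 control samples was read on Agilent arrays of design 014868, per the labels and file headers. The deposited intensity of each spot is a background-subtracted processed signal made with Agilent Feature Extraction 10.5.1.1, per the file headers, which record no scaling across arrays and place probes on mm9. The authors also deposited a table of log2 values. It equals the log2 processed signal within 1e-06 on 4 arrays and holds other values for both arrays numbered 1 (the difference has an SD of 0.457 in Magic-F1 and 0.473 in control). Its columns had medians of 3.53, 3.50 and 3.59 for Magic-F1 and 3.32, 3.35 and 3.40 for control. Its scale is log2 and uncentred on those 4 arrays. How the replicate 1 columns were made is unknown here.

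Control spots were left out, outlier-flagged spots (59 to 89 on an array) were treated as missing, and the 75th percentile of each array was subtracted from its log2 signals. Replicate spots were averaged per probe, and testing required signal well above background on all 3 arrays of either group. The comparison used lmFit and eBayes of limma 3.58.1 under R 4.3.3, with Benjamini-Hochberg adjustment over 21185 probes at 0.05, 2-sided. Where a probe was not well above background in a whole group, its change is a bound. For this, each dim array's value was raised to that array's lowest reliable signal where it lay under it, and the 2 group means were then compared. The fit was tested on simulated data for this comparison over 21185 probes, with 200 of them changed by several sizes. Of those set to a log2 change of 1, 82% were recovered, and of those at 0.5, 58%, with 6 false calls in all. In the real data 87.7% of tested probes were called, so these rates need not carry over. Of several tested probes, the one brightest over the 6 arrays stood for a gene. RefSeq names of GRCm38.p6 were matched by accession for 25097 probes.

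All members and all their probes are named. From each other list of AP-1 or EGR genes up to 4 genes are named, those past the threshold first and then by size. Of the genes these rules name, 2 are not reported here. Marker genes were named after their values were seen. Members and lists were chosen with earlier results of these data known. In the fibroblast list an alias of Tcf7l2 was dropped. The alternatives were other backgrounds, scalings, filters, blocks, weights and left-out arrays. Replicates may share a source, since the source name is the same within each group, and p-values then measure only the spread between these samples.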

Additional observations from a re-analysis of the deposited data

How the results depend on the processing

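Over 21 alternative settings, 241 values of member probes were recomputed, and 238 kept their direction and call. The 3 others were the 2 Fosl2 probes with a normexp background, at -0.014 (A_51_P507242, adjusted p 0.764) and -0.033 (A_52_P484903, adjusted p 0.622), and the Junb probe A_51_P159194 within slide 1, at 0.21 (adjusted p 0.0666). The cause was not tested. Leaving out 1 array at a time left 11 member probes higher and 1 lower in every case. The changes then ran from 2.76 to 2.83 for Atf3, 2.43 to 2.49 for Egr2, 1.69 to 1.73 for Fos, 1.58 to 1.68 for Fosb, 1.30 to 1.41 for Jun, 1.30 to 1.38 for Jund, 0.78 to 0.92 for Egr1, 0.20 to 0.27 and 0.21 to 0.28 for the Junb probes, 0.25 to 0.39 and 1.05 to 1.39 for the Fosl2 probes, and -0.82 to -0.76 for Fosl1. Other immediate early genes were higher in 12 to 13 and lower in 9 to 10. Over the other settings they were higher in 12 to 17 and lower in 6 to 12, with 17 and 6 under spike-in scaling, 16 and 7 unscaled, and 13 and 12 with normexp. Leaving out 1 array at a time, 8451 to 8833 of all tested probes were higher and 9541 to 9838 lower. Over the other settings, filters that change the number of tested probes included, 7375 to 11189 were higher and 7237 to 10982 lower. With the replicate number as a block, 11 member probes stayed higher and 1 lower, and 8710 probes in all were higher and 9831 lower. Deviations of samples with the same number correlated at -0.003, 0.108 and 0.069, and those with different numbers at -0.115 to 0.048. A correlation of 0.1 was needed, which replicate 2 alone passed, and the numbers were not taken as pairs. Scaling to the spiked-in transcripts made 60.7% of all calls higher in Magic-F1 (11189 higher, 7237 lower), against 47.1% with the 75th percentile, and put the median of all tested probes at 0.36, against -0.10. The dim Fosl2 probe is limited by its signal over background.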

Other observations

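Some genes that share regulators with the members moved the other way, named here after their values were seen. Myc fell by 1.65, with its other probes at -1.71 and -1.75. Ccn1 and Ccn2, matricellular genes known as targets of serum response factor and its coactivators, fell by 1.44 and 1.07. Srf itself fell by 0.34. Among the basic leucine zipper genes, Atf4, the main activator of the amino acid response, fell by 1.69, and Jdp2, a repressor that pairs with JUN, by 1.18. Of genes with several probes, Creb1 rose by 0.67 on its brightest probe while the others had -1.89 and -1.76, and Atf6 rose by 1.65 on its brightest probe while the other had -0.66. Atf2 rose by 0.59 on its brightest probe while the others had -0.36 and -1.27. Crem rose by 0.40, with 1 of its other probes at -0.48. The direction of these 4 genes depends on the probe.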
